A study of Arabidopsis thaliana with 8 samples.

Results

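The genes described here are 60 Arabidopsis thaliana genes for TIR-type intracellular immune receptors, matched by gene identifier from a list drawn up with earlier results of these data known. The annotation describes 57 of them as TIR-type receptors, and the other 3, AT4G19500, CHS3 and TAO1, in other words. Of these 60 genes, 18 have a row in the authors' deposited table of 2958 changed genes, 12 of them lower and 6 higher in the div1 libraries. The other 42 are not listed, so they were either not tested or above the threshold of the table, an adjusted p of 0.05. The study asked which genes respond when DIV1, a MYB-related transcription factor, is introduced into leaf cells. Leaf protoplasts, cells freed of their walls by a 90 min enzyme digestion of rosette leaves, took up plasmid DNA with polyethylene glycol and were kept overnight before poly(A) RNA sequencing. All 8 libraries came from Col-0 plants aged 4 weeks, 4 labelled div1 and 4 labelled ev, the latter a label that the sources do not expand. Digestion, transfection and overnight culture were shared by every library, the sources used here give neither the dose of DIV1 nor the share of cells that took up plasmid, and no label ties replicates to separate plants or transfections, so the p-values may measure technical spread.

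TIR-type receptors are proteins inside the plant cell that detect pathogen effectors, directly or through the host proteins that effectors alter. They carry an N-terminal TIR domain, a nucleotide-binding domain and usually leucine-rich repeats. Once active, the TIR domain makes nucleotide-derived signals that reach EDS1 complexes and helper receptors, which start defence and local cell death. Many of these genes lie in clusters of related copies, and some act as pairs transcribed away from a shared stretch of DNA, in which a sensor receptor and an executor receptor work together. Their transcript level matters for the plant, since excess of single members such as SNC1 switches on defence without a pathogen.

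The values are those of the authors' own test of div1 against ev: the normalized count averaged over the 8 libraries, a log2 fold change, its standard error (SE) and an adjusted p. Values per library were not used, so neither the depth of each library nor the overlap of replicates can be shown, and the SE is the only measure of spread. DIV1 itself (AT5G58900) had a log2 change that the authors' deposited table puts at 7.61 (SE 0.88), and positive values are therefore read as higher in div1. Intervals at 95% are the fold change plus or minus 1.96 SE. Group means are estimates, each the share of the mean count that the fold change assigns to ev or div1. Of 16 marker genes of mesophyll, guard cells, epidermis and vasculature, 0 were listed, so the table gives no level by which to check the labelled tissue. In protoplasts from a whole leaf, fewer cells of a type and less RNA per cell cannot be told apart.

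The members called made up 30.0% of the 60 genes, against 16.4% of the 18010 genes tested (recovered from the ranks of the deposited p-values). Lower calls made up 20.0% of the members against 7.28% of all genes tested, and higher calls 10.0% against 9.14%. The share of members called higher was thus near that of all genes, while the share called lower was larger. Members that were never tested would make the members' shares too small relative to that of tested genes. The median log2 fold change of the 18 called members was -0.67, against 0.41 for all 2958 called genes in the authors' deposited table. Most changes were modest: 3 members reached 2-fold, against 5.67% of all genes tested. They were 1 of the higher members, AT5G36930, against 3.47% of all genes tested, and 2 of the lower, VICTL and VICTR, against 2.2%. The 12 lower members had a median log2 fold change of -0.75, and all 1312 lower genes one of -0.76, in the authors' deposited table. The 6 higher members had a median of 0.76, and all 1646 higher genes one of 0.81, so these medians were close in either direction. Changes of 2-fold or more were less frequent among called members, 3 of 18, than among all called genes, 1022 of 2958. By direction these were 1 of 6 higher members against 625 of 1646 genes. For lower calls they were 2 of 12 members against 397 of 1312 genes.

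**Figure D1:**
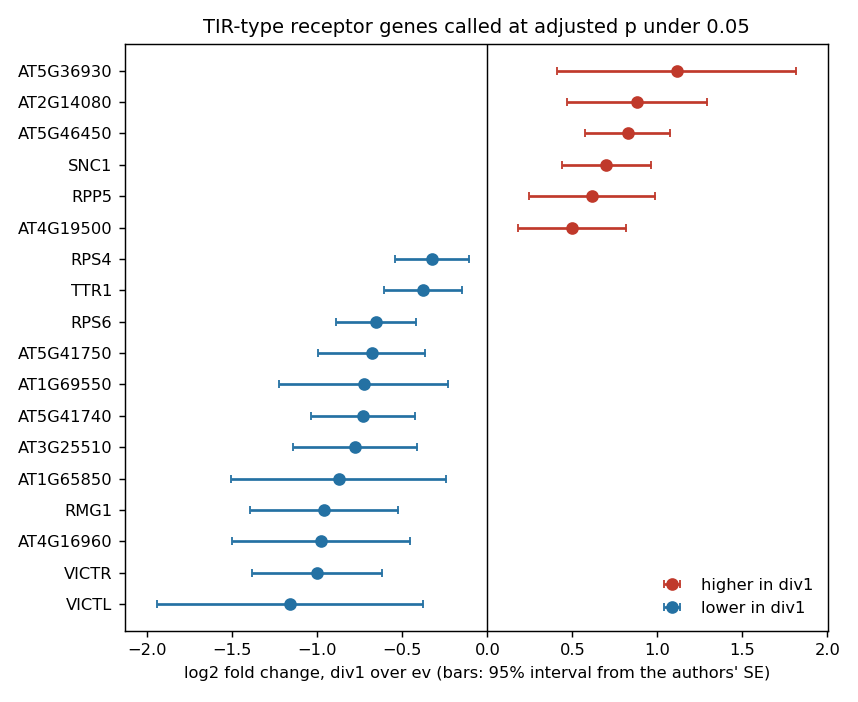
The plot of fold changes shows the log2 fold change of div1 over ev on the horizontal axis for the 18 called receptor genes, with bars for the 95% interval from the authors' SE. Values run from -1.16 for VICTL to 1.11 for AT5G36930. No interval can reach 0, since only genes called at an adjusted p under 0.05 are shown.

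The DNA in front of 4 called members, AT5G46450, VICTL, VICTR and SNC1, is shown first, as examples. AT5G46450, the member with the smallest adjusted p, rose and lies upstream of VICTL and VICTR, which fell, on the plus strand of chromosome 5. It is not their direct neighbour, since RPS6 and AT5G46490 lie between. SNC1, on the minus strand of chromosome 4, rose as well. For these 4 genes the 250 bases before the annotated start are given 5′ to 3′ on the strand of the gene, from RefSeq TAIR10.1, at chr5:18835355-18835604 for AT5G46450, chr5:18859984-18860233 for VICTL, chr5:18867366-18867615 for VICTR and chr4:9505973-9506222 for SNC1. Capitals mark GATAAG, a motif of DIVARICATA-type MYB factors, TATCCA, a related MYB motif, and TTGAC, the core of WRKY-bound sites, each on either strand.
AT5G46450: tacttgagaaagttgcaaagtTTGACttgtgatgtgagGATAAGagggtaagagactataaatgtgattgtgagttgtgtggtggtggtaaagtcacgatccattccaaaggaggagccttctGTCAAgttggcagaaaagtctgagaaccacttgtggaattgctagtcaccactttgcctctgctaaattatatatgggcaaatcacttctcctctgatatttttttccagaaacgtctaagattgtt
VICTL: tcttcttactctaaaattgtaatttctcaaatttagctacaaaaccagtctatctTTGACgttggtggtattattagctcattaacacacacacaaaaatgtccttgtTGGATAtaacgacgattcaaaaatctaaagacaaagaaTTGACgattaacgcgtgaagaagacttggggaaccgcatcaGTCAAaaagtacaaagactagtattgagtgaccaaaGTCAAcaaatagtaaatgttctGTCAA
VICTR: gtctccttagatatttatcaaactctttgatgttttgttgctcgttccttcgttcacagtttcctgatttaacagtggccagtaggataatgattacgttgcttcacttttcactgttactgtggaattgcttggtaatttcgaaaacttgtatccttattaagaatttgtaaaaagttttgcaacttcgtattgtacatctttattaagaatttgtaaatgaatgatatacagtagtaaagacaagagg
SNC1: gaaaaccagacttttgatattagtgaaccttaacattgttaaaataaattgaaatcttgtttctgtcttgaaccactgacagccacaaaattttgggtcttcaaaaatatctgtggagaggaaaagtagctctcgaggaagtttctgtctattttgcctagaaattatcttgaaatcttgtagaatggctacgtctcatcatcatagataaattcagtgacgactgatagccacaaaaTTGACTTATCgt
The stretch before AT5G46450 held 1 GATAAG and 2 TTGAC, that before VICTL 5 TTGAC and 1 TATCCA, and that before VICTR none of these motifs. Before SNC1, TTGAC and the reverse of GATAAG overlap by a base, next to the start. These letter matches describe the sequence and show no binding.

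Across the 250 bases before each start, GATAAG was present in 2 of the 6 higher members, 1 of the 12 lower members and 9 of the 42 members not listed. That is 20.0% of all 60 members, against 12.3% of 27443 protein-coding genes with such a window. The 2 higher members with GATAAG are AT5G46450 and SNC1, both printed above. The lower member is AT3G25510, which holds 2 GATAAG and is not printed. TATCCA was found in 13.3% of members and 13.6% of all genes. TTGAC was found in 48.3% of members and 44.9% of all genes, and in 2 of the 6 higher and 5 of the 12 lower members. With 6 and 12 genes, these counts set the directions apart by a few genes at most.

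RPS6, a receptor of Pseudomonas syringae effectors, sits in the cluster that held the most called members. This cluster spans 36.9 kb on chromosome 5 (18835605 to 18872494, TAIR10.1), with AT5G46450, RPS6, AT5G46490, VICTL and VICTR in that order, all on the plus strand. AT5G46450 had estimated means of 772 normalized counts in ev and 1368 in div1, and its log2 change in the authors' deposited table was 0.83 (SE 0.13, adjusted p 5.06e-09). The next member, RPS6, had estimated means of 8244 in ev and 5232 in div1, with a log2 change listed in the authors' deposited table as -0.66 (SE 0.12, adjusted p 1.86e-06). These neighbouring members were thus called in opposite directions, and their translated proteins are 64.6% identical. The 95% intervals were 0.58 to 1.07 for AT5G46450 and -0.89 to -0.42 for RPS6. Their separation follows from the calls, since only genes with an adjusted p under 0.05 are listed.

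At the far end of that cluster, VICTL and VICTR fell together. VICTR, which takes part in a root growth arrest triggered by a synthetic compound, had estimated means of 1471 in ev and 734 in div1. In log2 units it fell by 1.00 per the authors' deposited table (SE 0.19, adjusted p 7.26e-06). VICTL, its close copy, had estimated means of 333 in ev and 149 in div1 and a log2 value in the authors' deposited table of -1.16 (SE 0.40, adjusted p 0.0268). The translated proteins are 92.7% identical over 84.6% of VICTL, and how the counting divided reads between them was not tested. In a global alignment of the 250 bases before each start, VICTL and VICTR shared 145 identical bases, 58.0% of the 250. The 6 pairs among AT5G46450, RPS6, VICTL and VICTR shared 56.8% to 62.4% of the 250. With gaps, these alignments ran to between 294 and 303 columns. Stretches of unrelated genes were not aligned, so these shares do not show that the upstream DNA is related. The span of VICTL also holds a small nucleolar RNA gene on the same strand, which was not listed. AT5G46490, between RPS6 and VICTL, was not listed either. The pentatricopeptide repeat gene AT5G46460, no immune receptor, which lies between AT5G46450 and RPS6, had a log2 change that the authors' deposited table puts at -0.98 (SE 0.24, adjusted p 6.19e-04).

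The cluster of SNC1 and RPP5 on chromosome 4 also held calls in opposite directions. It spans 77.1 kb (9488466 to 9565569, TAIR10.1) and has 7 members. SNC1, whose excess activates salicylic acid defence, had estimated means of 3996 in ev and 6489 in div1. It rose, with a log2 change listed in the authors' deposited table as 0.70 (SE 0.13, adjusted p 4.82e-06). RPP5, named for downy mildew resistance, had estimated means of 722 in ev and 1108 in div1. Its log2 value in the authors' deposited table was 0.62 (SE 0.19, adjusted p 0.00993). The adjacent member AT4G16960 went the other way, with estimated means of 420 in ev and 213 in div1 and a log2 change that the authors' deposited table puts at -0.98 (SE 0.27, adjusted p 0.00297). Its interval of -1.50 to -0.45 lies apart from those of SNC1, 0.44 to 0.96, and RPP5, 0.25 to 0.99. That separation again follows from the calls, since only genes with an adjusted p under 0.05 are listed.

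The other members of this cluster had no row: RPP4, also named for downy mildew resistance, RLM3, named for fungal resistance, AT4G16920 and AT4G16940. Copies in this cluster are close. AT4G16960 is 92.3% identical in protein to AT4G16940 over 93.8% of its length, and RPP5 is 87.1% identical to AT4G16920. How the counting divided reads between such copies was not tested. RPP5 overlaps AT4G16955 on the opposite strand by 1031 bases, and the kit used keeps no strand. None of the 9 other protein-coding genes within this span was listed.

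**Figure D2:**
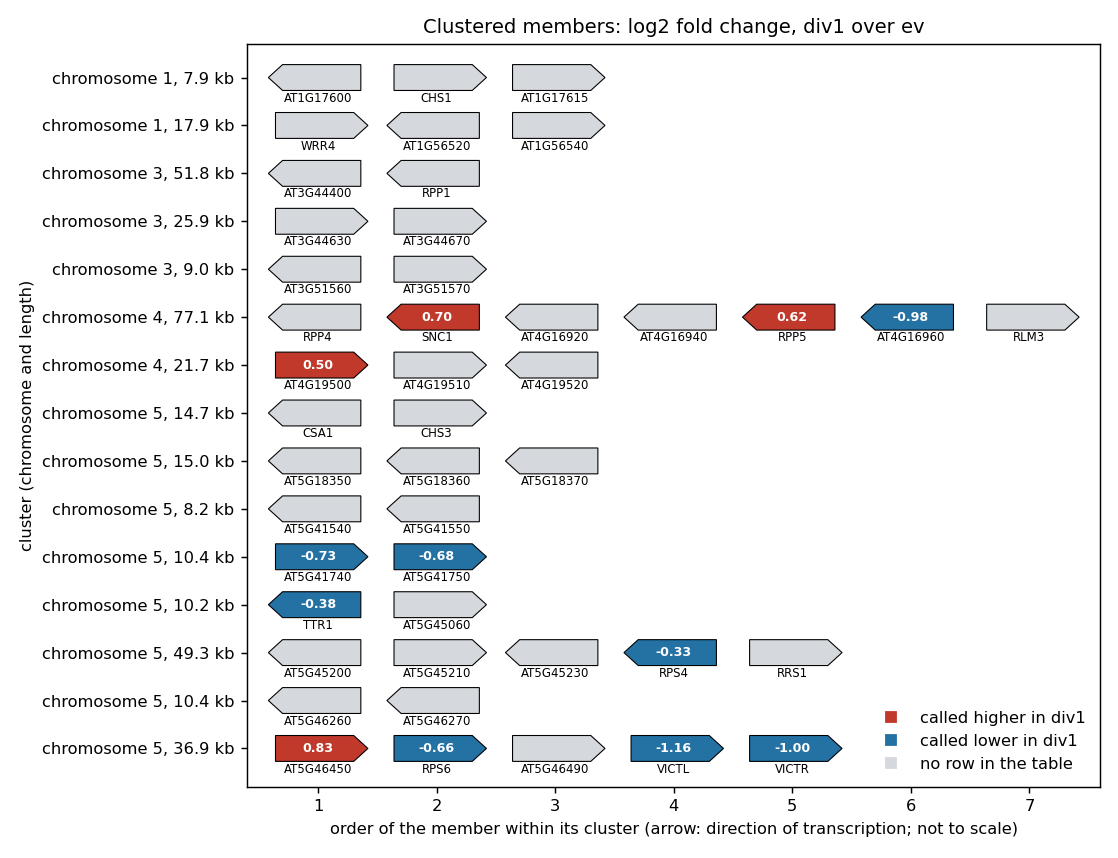
The cluster map shows the 45 members that lie in 15 clusters, in gene order along each cluster, with arrows for the direction of transcription and the log2 fold change of div1 over ev inside each called gene. Calls fall in 6 clusters, and the clusters of 77.1 kb and 36.9 kb hold both higher and lower calls.

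In 1 cluster, of 2 genes, every member was called, both lower and both at high level. AT5G41740 and AT5G41750 lie side by side on chromosome 5 (16688626 to 16699028, TAIR10.1), both on the plus strand, and are annotated as TIR-NBS-LRR receptors. AT5G41740 had estimated means of 25753 in ev and 15501 in div1, and a log2 change listed in the authors' deposited table as -0.73 (SE 0.16, adjusted p 6.18e-05). AT5G41750 had estimated means of 27353 in ev and 17074 in div1, and a log2 value in the authors' deposited table of -0.68 (SE 0.16, adjusted p 3.70e-04). Their 95% intervals, -1.04 to -0.43 and -0.99 to -0.37, overlap almost entirely. The proteins are 77.1% identical, the nearest match of AT5G41740 in the annotation. Per kb of exon these were the most abundant called members, at mean normalized counts of 5356 and 4512.

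Head-to-head pairs are neighbours on opposite strands with annotated starts no more than 5 kb apart. There were 7 such pairs among the members, and 2 had a called gene. The best known is RPS4 with RRS1, in which RRS1 carries a WRKY domain that senses effectors and RPS4 executes the response. RPS4 had estimated means of 1912 in ev and 1525 in div1, and a log2 change that the authors' deposited table puts at -0.33 (SE 0.11, adjusted p 0.0243). RRS1 was not listed. The annotated starts of RPS4 (minus strand) and RRS1 (plus strand) are separated by 27 bases at chr5:18326176-18326202.

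The second pair is built alike: TTR1 (AT5G45050), also named WRKY16 for its WRKY domain, with AT5G45060. TTR1 had estimated means of 1428 in ev and 1098 in div1, and a log2 change listed in the authors' deposited table as -0.38 (SE 0.12, adjusted p 0.00997), and AT5G45060 was not listed. TTR1 resembles RRS1 most (64.2% identical protein) and RPS4 resembles AT5G45060 most (65.3%), so in 1 pair the WRKY-type gene was called and in the other its partner. The starts of TTR1 (minus strand) and AT5G45060 (plus strand) are separated by 64 bases at chr5:18181974-18182037. Both spacers are given 5′ to 3′ on the plus strand of TAIR10.1, since they are all the DNA that lies between the starts of these divergent genes, with TTGAC on either strand in capitals.
RPS4 to RRS1: tgagatttgagtggttgaatgtccaat
TTR1 to AT5G45060: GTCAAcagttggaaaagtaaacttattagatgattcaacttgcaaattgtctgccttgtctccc
The spacer of TTR1 holds 1 TTGAC, at its end on the side of TTR1, and that of RPS4 none of the 3 motifs. The log2 fold changes of RPS4 and TTR1 were the smallest in size among the 18 called members. A partner with the same change but a large enough SE would not have been called. A missing row therefore does not show that RRS1 or AT5G45060 differed from its partner.

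The other 5 head-to-head pairs had no listed gene. They are CSA1 with CHS3, a pair whose altered forms cause shade-avoidance and chilling phenotypes, AT1G17600 with CHS1, AT1G56520 with AT1G56540, AT3G51560 with AT3G51570, and AT5G45200 with AT5G45210. The annotated spans of AT1G17600 and CHS1 overlap by 3193 bases. Members of head-to-head pairs were listed in 14.3% of 14 cases, and the other members in 34.8% of 46, against 16.4% of all genes tested. In the cluster of RPS4 and RRS1, which spans 49.3 kb, AT5G45200, AT5G45210 and AT5G45230 were not listed, but AT5G45240, a TIR-type gene outside the 60, had a log2 value in the authors' deposited table of -1.39 (SE 0.52, adjusted p 0.0479).

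The remaining cluster with a call is that of AT4G19500, AT4G19510 and AT4G19520 on chromosome 4 (10625562 to 10647280, TAIR10.1). AT4G19500 had estimated means of 666 in ev and 940 in div1, and a log2 change that the authors' deposited table puts at 0.50 (SE 0.16, adjusted p 0.0182). Its neighbours were not listed. In 9 clusters no member was listed. Among these are the clusters of WRR4, a white rust resistance gene, of RPP1, named for downy mildew resistance, and of CHS1. Within the spans of all 15 clusters lay 24 other protein-coding genes, of which 2 were listed, AT5G45240 and AT5G46460. Clustered members were listed in 26.7% of 45 cases, against 16.4% of all genes tested.

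Among the 15 members outside clusters, 6 were called, which is 40.0% against 16.4% of all genes tested. Of these, 4 were lower (26.7% of the 15, against 7.28% of all genes tested) and 2 higher (13.3%, against 9.14%). RMG1 (AT4G11170), whose promoter is controlled by DNA methylation and which responds to bacterial flagellin, had estimated means of 14090 in ev and 7235 in div1. Its log2 change in the authors' deposited table was -0.96 (SE 0.22, adjusted p 2.71e-04). AT5G36930 had the highest fold change of the members, with estimated means of 259 in ev and 561 in div1, and a log2 change listed in the authors' deposited table as 1.11 (SE 0.36, adjusted p 0.0156). AT2G14080 also rose, with estimated means of 673 in ev and 1237 in div1, and a log2 value in the authors' deposited table of 0.88 (SE 0.21, adjusted p 4.80e-04).

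The other lower genes outside clusters are TIR-NBS-LRR genes known by identifier alone. AT3G25510 had estimated means of 527 in ev and 308 in div1, and a log2 change that the authors' deposited table puts at -0.78 (SE 0.19, adjusted p 4.65e-04). AT1G65850 and AT1G69550 stood near the threshold: the authors' deposited table gives a log2 change of -0.88 (SE 0.32, adjusted p 0.0435) for AT1G65850 and of -0.73 (SE 0.25, adjusted p 0.0284) for AT1G69550. The estimated means of AT1G65850 were 462 in ev and 252 in div1, and those of AT1G69550 1184 in ev and 715 in div1. AT1G69550 overlaps 2 noncoding genes and AT2G14080 a pseudogene on the opposite strand, none of them listed. Not listed outside clusters were RLM1, a fungal resistance gene, TAO1, which adds to resistance triggered by the effector AvrB, LAZ5, AT4G12010, AT1G66090, AT1G72840, AT5G38340, AT5G38850 and AT5G40100.

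The called members differed widely in level. Per kb of exon, the mean normalized count ran from 46.0 for VICTL to 5356 for AT5G41740, with a median of 247. The 5 members above 1000 per kb were AT5G41740, AT5G41750, RMG1, RPS6 and SNC1, of which SNC1 alone was higher in div1. SNC1 had an estimated 781 per kb in ev and 1268 in div1, and RPS6 1650 in ev and 1047 in div1, so the order of their estimated levels was the reverse in the div1 libraries.

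**Figure D3:**
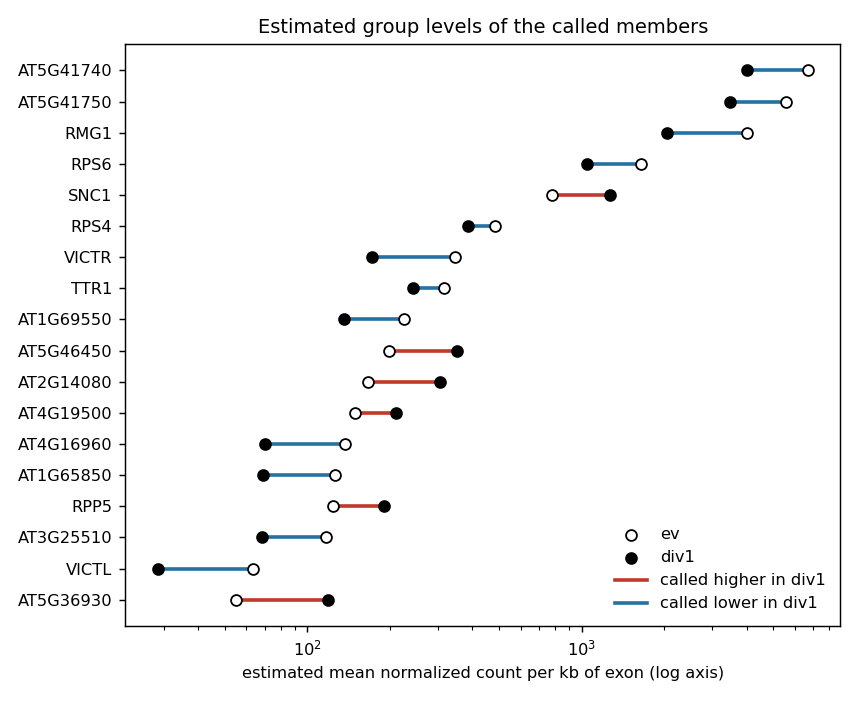
The plot of levels shows estimated mean normalized counts per kb of exon on a log axis for the 18 called members, with open points for ev and filled points for div1, joined by red lines for higher and blue lines for lower calls. RMG1 falls from 4002 to 2055 per kb, and the RPS6 and SNC1 points lie in opposite order in ev and in div1.

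The members that were called and those that were not had similar medians of gene structure. Median coding exons were 5 in both, and the median translated protein had 1199 residues in called and 1168 in unlisted members. The ranges differed, from 1001 to 1449 residues in called and from 380 to 1744 in unlisted members. The 4 members annotated as TIR-NBS, without leucine-rich repeats, were all unlisted: CHS1, AT1G17615, AT1G66090 and RLM3. All members were listed in 30.0% of cases and all genes tested in 16.4%, so a count from 4 genes does not set this class apart. At the smallest SE among the called members, 0.11, a log2 change below 0.29 in size would not have been listed, and at the largest, 0.40, a change below 1.06. The table holds no SE for the 42 unlisted members, so the size of change that could have been detected in them is not known here.

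Genes that the annotation describes alike but that are not among the 60 were also called lower more often than higher. Of 47 further genes described as TIR-NBS or TIR-NBS-LRR receptors, 10 were lower and 1 was higher. These are 21.3% lower against 7.28% of all genes tested, and 2.13% higher against 9.14%. The 6 with the smallest adjusted p were all lower. For AT4G36140 the authors' deposited table gives -0.60 (SE 0.13) on the log2 scale, for AT1G31540 -0.68 (SE 0.14), and for AT4G36150 -0.55 (SE 0.13). AT4G36140 and AT4G36150 overlap each other, so their calls may not be independent. For AT4G14370, a gene with a mean of 19479, the authors' deposited table gives -0.53 (SE 0.13), for AT1G63750 -0.49 (SE 0.14), and for AT5G22690 -0.53 (SE 0.15). Of 28 genes described by a TIR domain alone, 4 were lower (14.3%, against 7.28% of all genes tested) and 1 higher (3.57%, against 9.14%). AT1G52900 changed most, and the authors' deposited table gives it a log2 value of -2.58 (SE 0.29). The other lower genes were AT5G44910, for which the authors' deposited table gives -1.02 (SE 0.24), AT2G20142 with -0.72 (SE 0.26) and AT1G57630 with -0.47 (SE 0.15). AT1G47370, the higher gene, has a mean of 65.1 in the authors' deposited table and a log2 value of 1.72 (SE 0.49).

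Receptors with a coiled-coil in place of the TIR domain had both higher and lower calls. Of 25 genes described as CC-NBS-LRR, 4 were higher (16.0%, against 9.14% of all genes tested) and 3 lower (12.0%, against 7.28%). For RPP8, named for downy mildew resistance, the authors' deposited table gives a log2 change of 1.98 (SE 0.29), and for CW9 1.00 (SE 0.26). The other higher genes were AT5G48620, for which the authors' deposited table gives 0.93 (SE 0.17), and AT1G15890 with 0.58 (SE 0.20). The lower genes were AT5G35450, for which the authors' deposited table gives -0.70 (SE 0.21), and ADR1 and AT5G66900, which also count among the helper receptors. A partly overlapping list of 12 CC-type receptors was drawn up with earlier results of these data known. In it 3 were higher (25.0%, against 9.14% of all genes tested) and 0 lower, against 7.28%. Its higher genes were RPP8, CW9 and RPP13, whose value in the authors' deposited table is 0.43 (SE 0.16, log2 scale). The difference between TIR-type and CC-type genes was not tested.

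Partners of the TIR-type receptors were called in a single direction within each of these lists. Of 11 genes of the EDS1 node and the helper receptors, 6 were lower, which is 54.5% against 7.28% of all genes tested, and 0 were higher, against 9.14%. This list, like the next, was drawn up with earlier results of these data known. For EDS1, the protein that TIR signals reach, the authors' deposited table gives a log2 change of -0.56 (SE 0.13), and for SAG101, its partner, -0.52 (SE 0.18). For the helper receptors ADR1 and ADR1-L1 the authors' deposited table gives -0.72 (SE 0.25) and, for the latter, -0.55 (SE 0.17). The remaining calls were AT5G66900, annotated as a CC-NBS-LRR gene, for which the authors' deposited table gives -0.41 (SE 0.13), and AT3G48080, with -0.87 (SE 0.27). AT3G48080 is annotated as a hydrolase in the same words as EDS1 (AT3G48090). How the counting divided reads between AT3G48080 and EDS1 was not tested, so their calls may not be independent.

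Of 15 genes for receptor folding, turnover and guarded partners, 5 were higher, which is 33.3% against 9.14% of all genes tested, and 0 were lower, against 7.28%. CPR1, an F-box protein that targets receptors such as SNC1 for breakdown, had a log2 value in the authors' deposited table of 1.33 (SE 0.16, adjusted p 7.44e-15). The chaperone genes HSP90.1, HSP81-2 and HSP81-3, whose protein folds such receptors, rose too. For HSP90.1 the authors' deposited table gives a log2 change of 1.95 (SE 0.21), for HSP81-2 1.68 (SE 0.26) and for HSP81-3 1.35 (SE 0.24). How the counting divided reads among these chaperone genes was not tested, so their calls may not be independent. AT1G14200, a RING-type gene, stood at 0.94 in the authors' deposited table (SE 0.28, log2 scale) and overlaps AT1G14190. HSP90 genes also belong to the heat response. In the list of 14 genes that regulate SNC1 expression or act as its co-repressors, 0 were listed, against 16.4% of all genes tested. Genes without a row may not have been tested, so this does not show that they were unchanged.

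**Figure D4:**
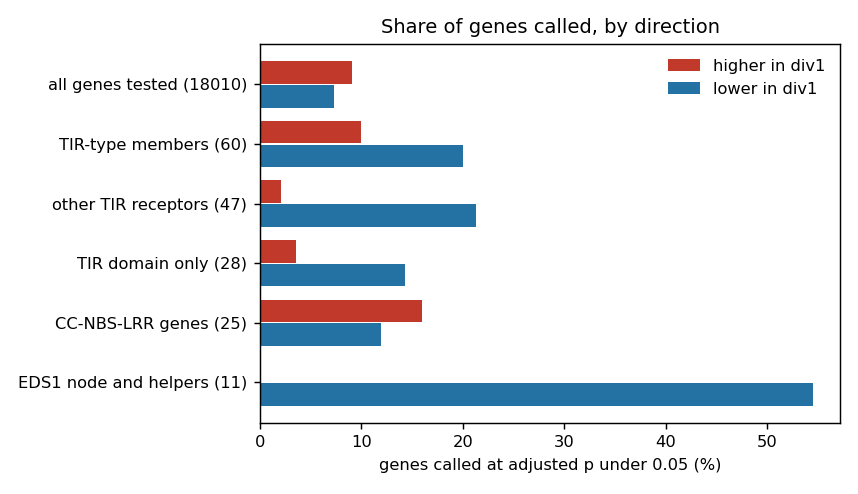
The bar chart gives the percentage of genes called higher (red) or lower (blue) in div1 at an adjusted p under 0.05, for all genes tested, the 60 members, other TIR receptors, genes with a TIR domain alone, CC-NBS-LRR genes, and the EDS1 node with helper receptors. Lower calls reach 20.0% among the members and 21.3% among other TIR receptors, against 7.28% of all genes tested.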

How the data were processed

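The study sequenced poly(A) RNA of 4 div1 and 4 ev libraries, grouped by sample title. Tools named in the submitters' processing notes are DESeq2, featureCounts 2.0.1, HISAT2 and fastp 0.21.0, with TAIR10 as the build. Their settings are not stated there. The authors' deposited table, per the file headers, holds the normalized count averaged over libraries (a signal), the log2 fold change with its SE, the statistic of the test (a score), and p-values before and after adjustment. It lists genes with an adjusted p under 0.05 only, so calls were read as deposited and no count test was run. Depth per library is unknown.

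Computed here were the number of genes tested (adjusted p times rank over p, largest value 18010, within 0.5 of it in 2548 genes; tested on simulated data), estimated group means with 4 libraries each, 95% intervals, clusters (neighbouring members within 50 kb), head-to-head pairs and motif counts. All 60 identifiers matched the RefSeq TAIR10.1 annotation. It is of a later release than the TAIR10 named by the submitters, and all coordinates and sequences are its own. Names follow that annotation. Proteins were translated from its longest coding sequence and compared with blastp 2.17.0. Sources were read with Python 3.11.15, pandas 2.3.3, scipy 1.17.1 and biopython 1.88. Near-identical means at least 90% identity over 70% of the protein.

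Members and lists were chosen with earlier results of these data known. Every called member is named, with up to 6 called genes per other list by adjusted p, pair partners and the unlisted genes of clusters with a call. AT5G46460, AT5G45240 and all calls among genes described by a TIR domain alone or as CC-NBS-LRR were named after their values were seen. Alternatives were stricter thresholds, filters on the mean, removal of overlapping or near-identical genes, other distances and a wider gene list.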

Additional observations from a re-analysis of the deposited data

How the results depend on the processing

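Of the 18 called members, 12 passed an adjusted p under 0.01 (4 higher, 8 lower). Of all genes tested, 10.9% passed (6.39% higher, 4.56% lower). At an adjusted p under 0.001, 9 remained (3 higher, 6 lower), against 6.98% of all genes tested (4.21% higher, 2.77% lower). At 2-fold or more there were 3 of the 60 (1 higher, 2 lower), against 5.67% of all genes tested (3.47% higher, 2.2% lower). The calls lost at 0.01 were AT1G65850, AT1G69550, AT4G19500, AT5G36930, RPS4 and VICTL, and with them 1 head-to-head pair with a call was left. A mean of at least 50 or 200 removed none of the 18. Without members that overlap another gene 13 calls were left (28.3% of such members), and without near-identical copies 15 (26.8%). All genes described as TIR receptors held 28 calls (6 higher, 22 lower), 26.9% of them. With every protein-coding gene as denominator the background share was 10.6%. Clusters with a call numbered 6 at 20 kb and 5 at 100 kb, and pairs with a call 3 at 10 kb. The sign of no called member can change, since its value is fixed by the deposit. Leaving out a library was not run. No paired analysis was possible because the table holds no values per library.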
